A study of Mus musculus with 12 samples.

Results

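The hippocampus was compared with the cortex in vehicle-treated 3×TgAD mice, a line that models Alzheimer's disease and carries human APP and tau transgenes. The comparison rests on 6 of the 12 arrays of the series, 3 of the hippocampus and 3 of the cortex, chosen by tissue and treatment as labelled. All mice were male, 14 months old at the start and 18 months old at harvest, and all carried the transgenes, so that no mouse without them enters the comparison. The vehicle mice drank plain water and the other mice received AMI (amitriptyline, a tricyclic antidepressant, 100 µg per g of body weight) in the drinking water for 4 months. Both treatments included injections of BrdU, a label of dividing cells. RNA of each sample was hybridized to an Illumina Sentrix Mouse Ref-8 BeadChip, on which 50-base probes attached to beads report transcripts as fluorescence. Of 25697 probes, 13104 probes of 9917 genes were detected (p of 0.05 or below by the scanner software) on 3 or more vehicle arrays and were tested. No source says which mouse gave which sample, so that the p-values measure the spread between these samples only.

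The hippocampus is a folded strip of old cortex that encodes new episodic and spatial memories. Granule cells of its dentate gyrus, where neurons are still born in adult life, project to pyramidal cells of field CA3, which in turn project to CA1. The neocortex is built of 6 layers whose projection neurons acquire their identity from transcription factors such as Tbr1, Cux1 and Fezf2. Each of these neuron types carries its own receptors, channels and adhesion molecules, so a difference between pieces of tissue reflects which cells they hold as well as how much RNA each cell holds. On tissue arrays fewer cells of a type and less RNA per cell cannot be told apart.

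Between 49.0% and 50.8% of probes were detected per vehicle array. The first principal component, with 59.3% of the variance, separated the tissues, and the second, with 17.1%, set cortex replicate 3 (-21.20) apart from cortex replicates 1 (10.86) and 2 (14.30). The hippocampal and the cortical arrays were deposited in 2 tables exported by different software releases, with a brightest signal of 41186 to 50971 in the hippocampus and 24979 to 27018 in the cortex, so that tissue and table cannot be told apart. After z normalization the median difference of all tested probes was 0.04 (log2, hippocampus minus cortex), but it was -0.09 among the brightest 2621 probes, which was 0.00 after quantile normalization. The 2621 probes with the lowest GC content, 26% to 48%, had a median of 0.13, and 21.1% of them were called higher in the hippocampus against 6.37% in the cortex. The part of probe composition in the results was not tested.

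Of the 13104 probes, 2718 (20.7%) differed between the tissues at an adjusted p under 0.05 in limma, and these probes are termed called. There were 1610 probes (12.3%) higher in the hippocampus and 1108 (8.46%) higher in the cortex. The share of calls that were higher in the hippocampus, 59.2%, was 49.98% after quantile normalization, 50.4% after background correction with neqc and 89.2% after median centring, which raised the median of all tested probes to 0.20. The surplus of hippocampal calls therefore depended on the scaling. A log2 difference of at least 1 was reached by 233 called probes (1.78%), with 109 (0.832%) higher in the hippocampus and 124 (0.946%) higher in the cortex. In 40.9% of tested probes the 3 hippocampal arrays did not overlap the 3 cortical arrays. With 1 probe per gene, 2102 of 9917 genes (21.2%) were called, 1193 (12.0%) higher in the hippocampus and 909 (9.17%) higher in the cortex, the groups were apart in 41.2%, and the median difference was 0.03. These shares are the background for every group of genes below. No share of all genes was counted for the tissue difference at an unadjusted p under 0.05, so that counts at that threshold lack a background. The groups were chosen with earlier results of these data known, so that their shares are descriptions. A gene detected in a single tissue passed the detection filter through that tissue, which largely set its direction.

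**Figure D1:**
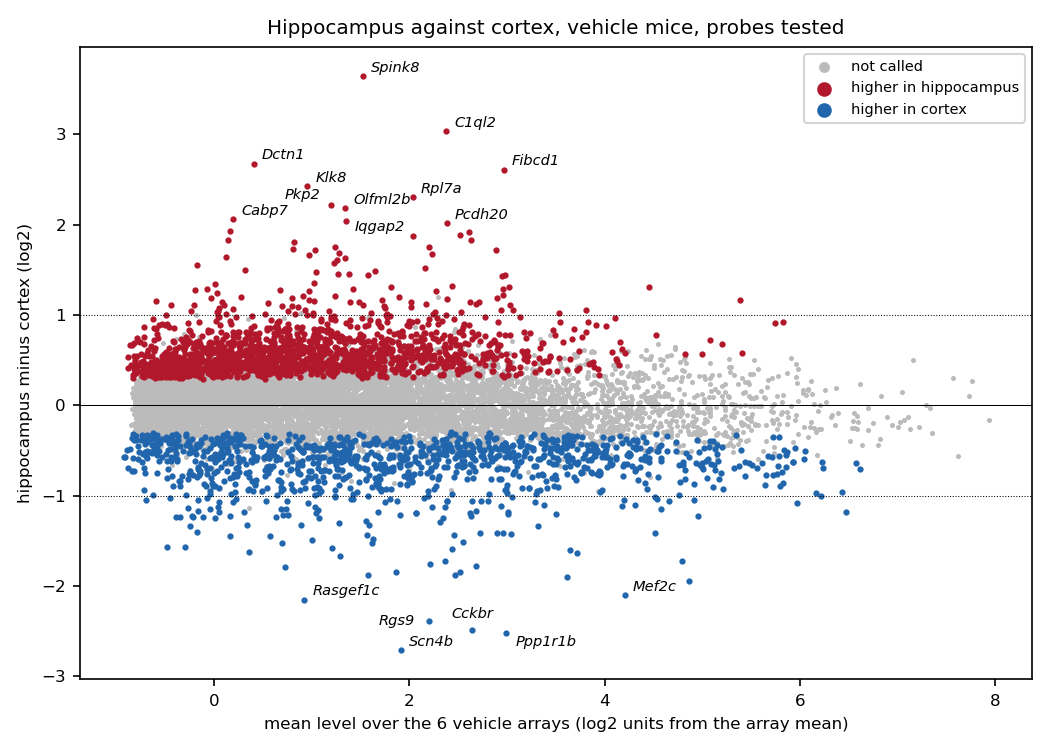
Mean level of each of the 13104 tested probes over the 6 vehicle arrays (x axis, log2 units from the array mean) against the difference hippocampus minus cortex (y axis, log2). Red and blue points are called higher in the hippocampus (1610) and in the cortex (1108), grey points are not called, dotted lines mark differences of 1, and the named probes with the largest differences are labelled.

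Levels below are log2 units above or below the mean of all probes on the same array, given for replicates 1, 2 and 3 of a tissue, and they compare arrays for a single probe only. Genes with the largest differences in each direction, 15 a direction, are described first within the cell types they are known from. All 30 of these genes stayed called with any single array left out. They had been chosen for large differences and groups that do not overlap on these same arrays, so that this is a description.

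Genes known from hippocampal pyramidal cells led the hippocampal side. Spink8, a serine protease inhibitor of the Kazal type known from CA1, stood at 3.71, 3.18 and 3.14 on the hippocampal arrays and at -0.07, -0.24 and -0.59 on the cortical arrays. Its lowest hippocampal array lay far above its highest cortical array, with a difference of 3.65 ± 0.19 (SE, adjusted p = 3.11e-05), or 12.5-fold, the largest of all tested probes. Fibcd1, a membrane receptor for acetylated groups that also marks CA1, reached 4.41, 4.11 and 4.29 in the hippocampus against 1.68, 1.45 and 1.85 in the cortex. The difference was 6.1-fold (log2 2.61 ± 0.13, adjusted p = 3.11e-05). Lefty1, a secreted inhibitor of nodal signalling, was at 0.92, 1.0 and 0.91 against -0.59, -0.73 and -0.79, and was detected on 2 of 3 cortical arrays. Amigo2, an adhesion molecule of CA2 and CA3 neurons, differed by 1.28 and Grik4, the kainate receptor subunit of CA3, by 0.93, both with arrays that did not overlap.

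Of 29 genes listed for hippocampal pyramidal cells and their CA fields, 24 were on the array and 21 were tested, 16 of them detected on all 6 arrays. There were 13 higher in the hippocampus (61.9%, against 12.0% of all genes) and 2 higher in the cortex. The median was 0.75. Bok, Cpne4, Cpne7 and Pou3f1 were among those that were higher, by 1.14, 1.19, 1.05 and 1.03. Tspan18 and Iyd were detected on no cortical array, so that they passed the detection filter through the hippocampus alone. Their differences were at least 1.61-fold and at least 1.46-fold, where the cortical side is taken at the lowest detected signal of each array. The exceptions were Tyro3, a receptor tyrosine kinase, and Wfs1, the endoplasmic reticulum protein wolframin. Tyro3 was higher in the cortex (log2 -1.49), with levels of 0.23, 0.39 and 0.17 in the hippocampus against 1.72, 1.86 and 1.69 in the cortex. Wfs1 was higher in the cortex too (log2 -0.55). Both are known from CA1 as well as from neocortical neurons.

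The dentate granule cell genes were higher in the hippocampus wherever they were called. C1ql2, a secreted synaptic organizer of mossy fibre terminals, reached 4.38, 3.34 and 3.98 in the hippocampus against 1.06, 0.62 and 0.91 in the cortex. Hippocampal replicate 2 was the lowest of its group and still lay far above all cortical arrays, and the difference was 8.21-fold (log2 3.04 ± 0.24, adjusted p = 0.000249). Prox1, the transcription factor that specifies granule cells, stood at 1.42, 0.83 and 1.11 against 0.16, -0.25 and 0.04 (log2 1.14, adjusted p = 0.0031). Replicate 2 again had the lowest hippocampal value. Sema5a, a transmembrane semaphorin, was at 3.27, 2.56 and 2.95 against 1.37, 1.30 and 1.54. Desmoplakin (Dsp) was detected on all hippocampal and no cortical arrays, an excess of at least 1.65-fold. Of 19 listed genes 14 were on the array and 8 were tested, 6 of them detected on all 6 arrays. Of the 8, 5 (62.5%, against 12.0% of all genes) were called, all higher in the hippocampus, with Trpc6 (0.42) the smallest. Dsp passed the detection filter through the hippocampus alone. Of the 5, 4 had groups apart and were called the same way after quantile normalization and neqc. The t-test of the study's methods called 2 of the 8. Trpc6 was not called when any of the 6 arrays was left out (0.33 to 0.51). Pter, C1ql3 and Tnfrsf25, at 0.01, 0.09 and 0.62, did not pass, and Calb1 and Tdo2 were not detected often enough to be tested.

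Other genes of the hippocampal 15 belong to no cell type list. Klk8, the secreted protease neuropsin, which cleaves adhesion molecules at synapses, was at 2.27, 2.27 and 1.95 in the hippocampus against -0.12, -0.18 and -0.48 in the cortex, a 5.37-fold difference. Plakophilin 2 (Pkp2), a desmosomal plaque protein, was at 2.39, 2.29 and 2.24 against 0.22, -0.03 and 0.07. Its other probes gave 1.34 and 1.73, in the same direction. Olfml2b, an extracellular matrix protein, had the tightest groups, 2.41, 2.44 and 2.45 against 0.32, 0.22 and 0.21 (log2 2.18 ± 0.09, adjusted p = 2.44e-05). Iqgap2, a scaffold of the actin skeleton, differed by 2.04, and Golm1, a Golgi membrane protein, by 1.92 with a second probe at 1.67. The calcium binding protein Cabp7, the cytokine precursor Il16 and the neuropeptide Y receptor Npy2r differed by 2.06, 1.92 and 1.82, and each was detected on 1 of 3 cortical arrays. Npy2r is the presynaptic receptor through which neuropeptide Y restrains glutamate release.

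Dctn1 and Rpl7a, genes that most cells express, were also among the 15. Dynactin 1 (Dctn1), a subunit of the dynein motor complex, was at 1.73, 1.96 and 1.55 in the hippocampus and was not detected on any cortical array (-0.93, -0.85 and -1.01), a difference of at least 5.62-fold with a fitted log2 value of 2.67 (adjusted p = 3.11e-05). Rpl7a, a protein of the large ribosomal subunit, was at 3.23, 3.13 and 3.20 against 0.99, 0.86 and 0.81, which is 4.92-fold. Each gene was read by a single tested probe, and ribosomal protein genes have near-identical processed copies in the genome, so that a signal may come from another copy. The sequences of both probes are shown with that of Klk8 because the differences of these genes rest on what 50 bases bind.
Klk8: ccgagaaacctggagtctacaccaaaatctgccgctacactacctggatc
Dctn1: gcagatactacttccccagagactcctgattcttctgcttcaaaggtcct
Rpl7a: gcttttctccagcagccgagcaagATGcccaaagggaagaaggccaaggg
All 3 probes are 50 bases long and are given 5′ to 3′ as on the array. Capitals mark the first ATG of the Rpl7a probe, which lies after 24 bases. By the array's annotation that probe starts at base 1 of its transcript, and the Dctn1 and Klk8 probes start at bases 585 and 1193. The Rpl7a value thus reads the 5′ end of a transcript, and no other Rpl7a probe was tested. The 3 probes hold 26 (Klk8), 24 (Dctn1) and 29 (Rpl7a) G or C bases.

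**Figure D2:**
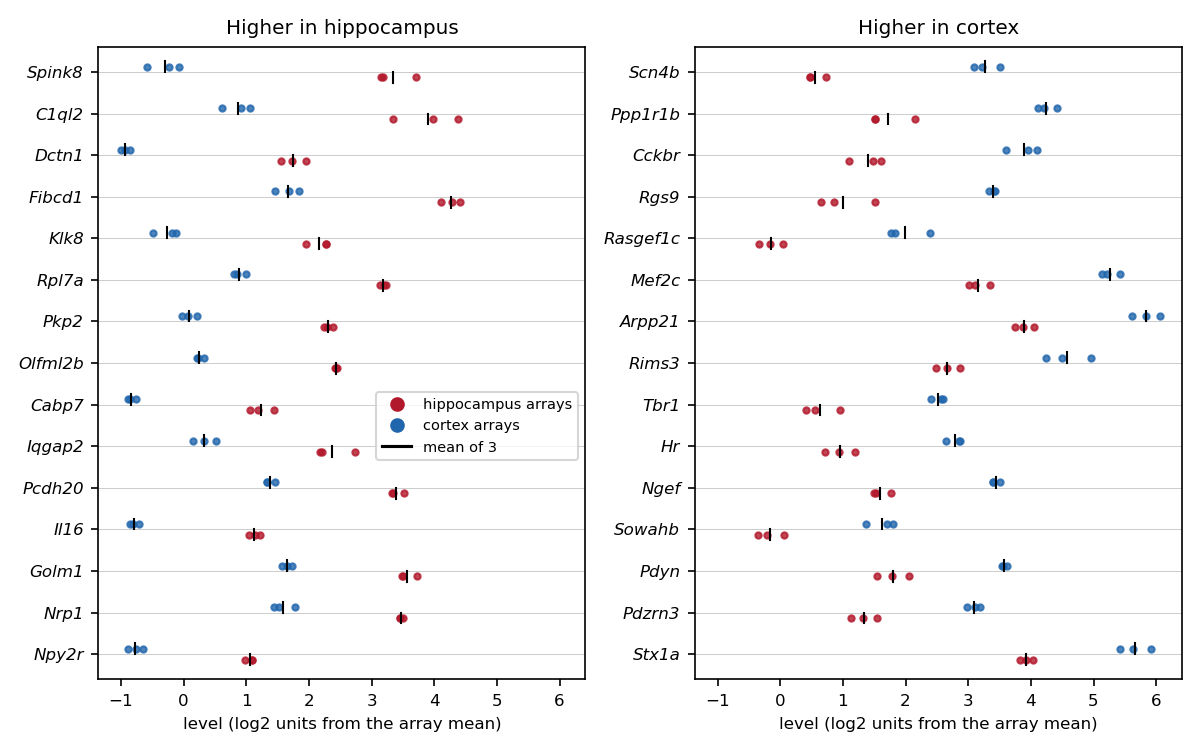
Levels on each vehicle array (x axis, log2 units from the array mean) of the 15 genes with the largest difference in each direction. Each point is an array, red for the hippocampus and blue for the cortex, and the black line is the mean of 3. In none of the 30 genes do the groups overlap, which their choice required.

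On the cortical side the leading neocortical genes were Mef2c, Tbr1 and Cckbr. Mef2c, a MADS box transcription factor that shapes upper-layer circuits, was at 3.35, 3.01 and 3.11 in the hippocampus against 5.14, 5.21 and 5.42 in the cortex. It was 4.28-fold higher in the cortex (log2 -2.10 ± 0.12, adjusted p = 4.78e-05). A second probe gave -1.88, whereas the last one, detected on 1 hippocampal and 2 cortical arrays, gave -0.11 and was not called. Tbr1, the T-box factor of layer 6 neurons, stood at 0.56, 0.96 and 0.42 against 2.40, 2.59 and 2.56 (log2 -1.88). All of its cortical arrays were above its highest hippocampal array. Cckbr, the brain receptor for cholecystokinin, was at 1.09, 1.62 and 1.48 against 3.60, 3.96 and 4.09, a 5.6-fold difference. Ccn2 (log2 -1.44), known from subplate-derived layer 6b neurons, Myl4 (-1.15) and the upper-layer genes Cux2 (-0.88) and Cux1 (-0.66) were also higher in the cortex. Cux2 was not called without cortex replicate 1 or 2 or hippocampus replicate 1 or 3 (-0.94 to -0.67).

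Of 38 neocortical layer genes 36 were on the array and 29 were tested. There were 12 higher in the cortex (41.4%, against 9.17% of all genes) and 4 higher in the hippocampus, and the median was -0.15. Dkkl1, at -0.83, -0.86 and -1.04 in the hippocampus against 0.45, 0.62 and 0.22 in the cortex, was not detected on any hippocampal array, so that the cortical excess was at least 2.25-fold. The 4 exceptions were Crym, a thyroid hormone binding protein (log2 1.02), Nectin3, an adhesion molecule (0.77), Bcl6, a transcriptional repressor (0.73), and Fezf2, the factor of subcortically projecting neurons (0.67). Fezf2 stood at 1.91, 2.11 and 1.89 in the hippocampus against 1.44, 1.51 and 0.95 in the cortex. The groups did not overlap, and the call was lost without hippocampus replicate 2 (0.59). Rprm (-0.68), Etv1 (-0.08), Tle4 (0.05) and Lmo4 (0.37) did not pass, although Rprm was called without cortex replicate 3 (-0.98). Otof was higher in the cortex by -1.12 in vehicle mice and -0.64 in AMI mice.

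The cortical 15 also held genes of no neocortical layer list. Stx1a, syntaxin 1A of the vesicle fusion machinery, was at 3.83, 3.93 and 4.03 in the hippocampus against 5.42, 5.63 and 5.92 in the cortex (log2 -1.73). Rims3, an active zone protein, differed by -1.90 and Arpp21, a phosphoprotein regulated by cyclic AMP, by -1.94, with a second Arpp21 probe at -0.56. Ngef, a guanine exchange factor that acts downstream of Eph receptors, stood at 1.49, 1.54 and 1.77 against 3.4, 3.4 and 3.51. The cortical arrays were the tighter group. Rasgef1c, an exchange factor for Ras-like proteins, differed by -2.15, and its second probe, detected on no hippocampal array, by at least 2.35-fold. Pdzrn3, a ubiquitin ligase, Hr, the hairless corepressor, and Sowahb differed by -1.76, -1.84 and -1.79. A second Hr probe, at -0.30, was not called.

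Genes known from the striatum had the lowest median of the 30 lists. Scn4b, a sodium channel beta subunit, was at 0.48, 0.73 and 0.47 in the hippocampus against 3.50, 3.21 and 3.09 in the cortex, 6.55-fold higher (log2 -2.71 ± 0.13, adjusted p = 3.11e-05), the largest cortical difference of all tested probes. Ppp1r1b, which encodes DARPP-32, the dopamine-regulated phosphatase inhibitor, was at 1.51, 1.51 and 2.16 against 4.21, 4.12 and 4.42, and a second probe gave -1.07. Rgs9, whose striatal form dampens dopamine receptor signalling, was at 0.65, 0.86 and 1.51 against 3.33, 3.41 and 3.43. Hippocampal replicate 3 was the highest of its group for both genes, without reaching the cortical range. The dopamine receptor Drd1 stood at -0.12, 0.03 and -0.08 against 1.62, 1.35 and 1.41 (log2 -1.52), and Drd2 differed by -0.95. Tac1, the precursor of substance P, differed by -1.58. Isl1, a transcription factor of striatal neurons, was detected on all cortical and no hippocampal arrays, an excess of at least 2.07-fold.

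Of 20 striatal genes 17 were on the array and 14 were tested, 11 of them detected on all 6 arrays. Isl1 passed the detection filter through the cortex alone, which largely set its direction. Of the 14, 11 (78.6%, against 9.17% of all genes) were higher in the cortex and none in the hippocampus. At an unadjusted p under 0.05 in limma these counts were 13 and 0. The median was -1.18. Gng7 (-0.32), Pde10a (-0.26) and Foxp1 (0.00) did not pass, although Gng7 was called without hippocampus replicate 1 (-0.42). With every gene set to its mean over the 6 arrays, the median over the list ran from -0.72 to -0.57 on the hippocampal arrays and from 0.43 to 0.78 on the cortical arrays. Of 9 thalamic genes tested, 4 were higher in the cortex, namely Slc17a6, the vesicular glutamate transporter of subcortical neurons (-1.23), Ramp3 (-1.17), Rora (-0.87) and Tcf7l2 (-0.60), the last not called without cortex replicate 1 (-0.40) or hippocampus replicate 1 or 2. The medians of that list ran from -0.42 to -0.09 in the hippocampus and from 0.04 to 0.59 in the cortex. Scn4b, Ppp1r1b and Rgs9 are thus 3 of the 15 leading cortical genes that mark another forebrain region. The part of striatal or thalamic tissue in the cortical samples was not tested.

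**Figure D3:**
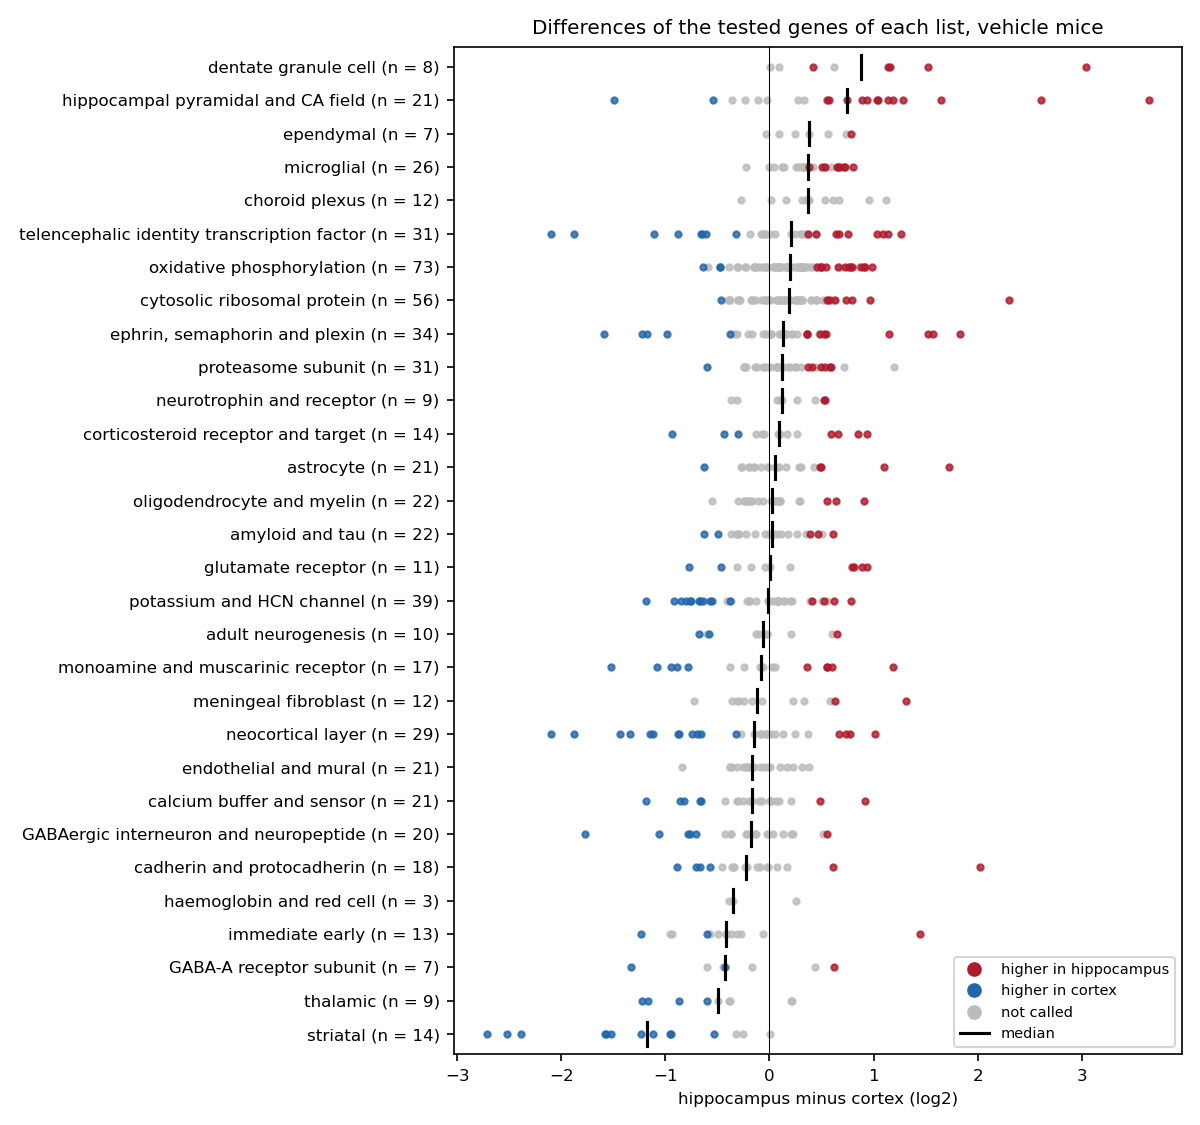
Differences between hippocampus and cortex (x axis, log2) of the tested genes of 30 lists, 1 point per gene and 1 row per list, ordered by the median (black line). Red and blue points are called, grey points are not. The dentate granule cell and CA field lists lie furthest to the hippocampal side (medians 0.88 and 0.75) and the striatal list furthest to the cortical side (-1.18).

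Transcription factors of telencephalic identity were called in both directions. Of 31 tested, 9 were higher in the hippocampus and 8 in the cortex. The median was 0.21. Nfib, a nuclear factor I protein needed for hippocampal development, was at 3.06, 2.78 and 2.89 in the hippocampus against 1.96, 2.06 and 0.91 in the cortex (log2 1.26, adjusted p = 0.014). Cortex replicate 3 was the lowest, and the call was lost without hippocampus replicate 1 (1.19). Neurod2, a neurogenic bHLH factor, differed by 0.64 and Nfix by 0.45. Lhx9 was detected on no cortical array, and its excess was at least 1.33-fold. Besides Mef2c, Tbr1 and the Cux genes, the cortical side held Meis2 (-1.11), a homeodomain factor also of striatal neurons, the chromatin organizer Satb1 (-0.64), the clock relative Npas2 (-0.61) and Rorb (-0.32), the nuclear receptor of layer 4. Lhx2, Bcl11b and Nr2f2, at 0.30, 0.44 and 0.34, did not pass, but Bcl11b was called without cortex replicate 3 (0.63) and Nr2f2 without hippocampus replicate 1 (0.51). Nfix was not called without hippocampus replicate 1 or 3 or cortex replicate 1 or 3 (0.36 to 0.47), and Rorb not when any of the 6 arrays was left out (-0.35 to -0.28).

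Because several of these factors bind known DNA motifs, the 250 bases upstream of transcription starts were searched on both strands in RefSeq promoters (GRCm38.p6). The called genes are read against the 9870 promoters of tested genes. CAGATG, a core bound by neurogenic bHLH factors, lay in 14.4% of all 32851 promoters and in 10.7% of those of tested genes. It lay in 14.1% of 71 promoters of genes called at least 1 higher in the hippocampus and in 17.6% of 108 promoters of genes called at least 1 higher in the cortex. AGGTGT, a T-box core, lay in 11.8% of all promoters, 9.82% of those of tested genes, 12.7% of the hippocampal set and 14.8% of the cortical set. TAAAAATA, a MEF2 core, lay in 2.45% of all promoters, 1.17% of those of tested genes, 2 of 71 and 0 of 108. TTGGCA, a nuclear factor I core, lay in 12.3%, 9.88%, 12.7% and 4.63% in the same order. TGACGTCA, the cyclic AMP response element, lay in 1.55% of all promoters, 2.45% of those of tested genes, 0 of 71 and 3 of 108. The 71 hippocampal promoters belong to 58 of 82 genes and the 108 cortical promoters to 72 of 102. Genes with several promoters count more than once. The shares are descriptions, and no difference between them was tested. The upstream bases of the highest ranked gene in each direction with a single promoter entry and a match are shown with the matches in capitals.
Olfml2b: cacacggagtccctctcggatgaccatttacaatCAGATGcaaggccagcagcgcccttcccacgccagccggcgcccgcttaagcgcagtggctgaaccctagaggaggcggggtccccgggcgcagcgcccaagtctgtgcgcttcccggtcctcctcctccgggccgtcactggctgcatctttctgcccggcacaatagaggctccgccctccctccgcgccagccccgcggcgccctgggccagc
Scn4b: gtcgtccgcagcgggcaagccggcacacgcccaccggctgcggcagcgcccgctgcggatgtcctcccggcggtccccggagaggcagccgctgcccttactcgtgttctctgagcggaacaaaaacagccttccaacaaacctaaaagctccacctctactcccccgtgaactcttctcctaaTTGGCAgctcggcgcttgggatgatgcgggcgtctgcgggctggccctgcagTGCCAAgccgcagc
The Olfml2b bases are chr1:170644282-170644531 on the plus strand and hold the bHLH core alone. The Scn4b bases are chr9:45138374-45138623 on the plus strand and hold the nuclear factor I core at 2 places, once on each strand, the second reading TGCCAA. A match is a run of letters and was not tested as a binding site.

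Guidance molecules, which steer axons and set synaptic partners, also split by tissue. Of 34 tested genes of the ephrin, semaphorin and plexin families, 9 (26.5%) were higher in the hippocampus and 5 (14.7%) in the cortex. The median was 0.13. Among the receptors, Nrp1, which binds class 3 semaphorins, was at 3.51, 3.57 and 3.56 in the hippocampus against 1.87, 1.65 and 1.63 in the cortex (log2 1.83). Another Nrp1 probe gave 1.89. Epha7 stood at 2.52, 1.58 and 1.94 against 0.38, 0.60 and 0.35 (log2 1.57), and Epha3, Epha5, Epha6 and Ephb2 were higher in the hippocampus too, by 0.36 to 0.55. These 4 lost their call without hippocampus replicate 2 (0.34 to 0.52), as Epha6 also did without hippocampus replicate 1 or cortex replicate 1 or 2. The related Nrp2 did not pass (-0.06).

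Among the ligands the direction differed within families. Efna5, a membrane-anchored ligand of EphA receptors, was at 1.24, 1.86 and 1.84 in the hippocampus against 3.41, 3.39 and 2.90 in the cortex (log2 -1.59, adjusted p = 0.0018). Sema3a, a class 3 ligand that signals through Nrp1, was at -0.32, -0.57 and -0.43 against 0.87, 0.93 and 0.55 (log2 -1.22), and Sema3f (-0.99) and Sema4a (-1.18) were higher in the cortex as well. Sema3e had the opposite direction, 0.66, 0.70 and 0.60 in the hippocampus against -0.37, -0.56 and -0.55 in the cortex (log2 1.15). Efnb1, Efnb2 and Efna1 lay within 0.12 of 0 and were not called. Of 18 tested cadherins and protocadherins, which mediate cell adhesion, 2 were higher in the hippocampus and 4 in the cortex. Pcdh20 led with 3.51, 3.32 and 3.34 against 1.46, 1.33 and 1.34 (log2 2.02), and Cdh7, Cdh6, Celsr3 and Pcdh10 were higher in the cortex, by -0.89 (Cdh7) to -0.58 (Pcdh10). Pcdh10 was called with all 6 arrays and without cortex replicate 3 only.

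**Figure D4:**
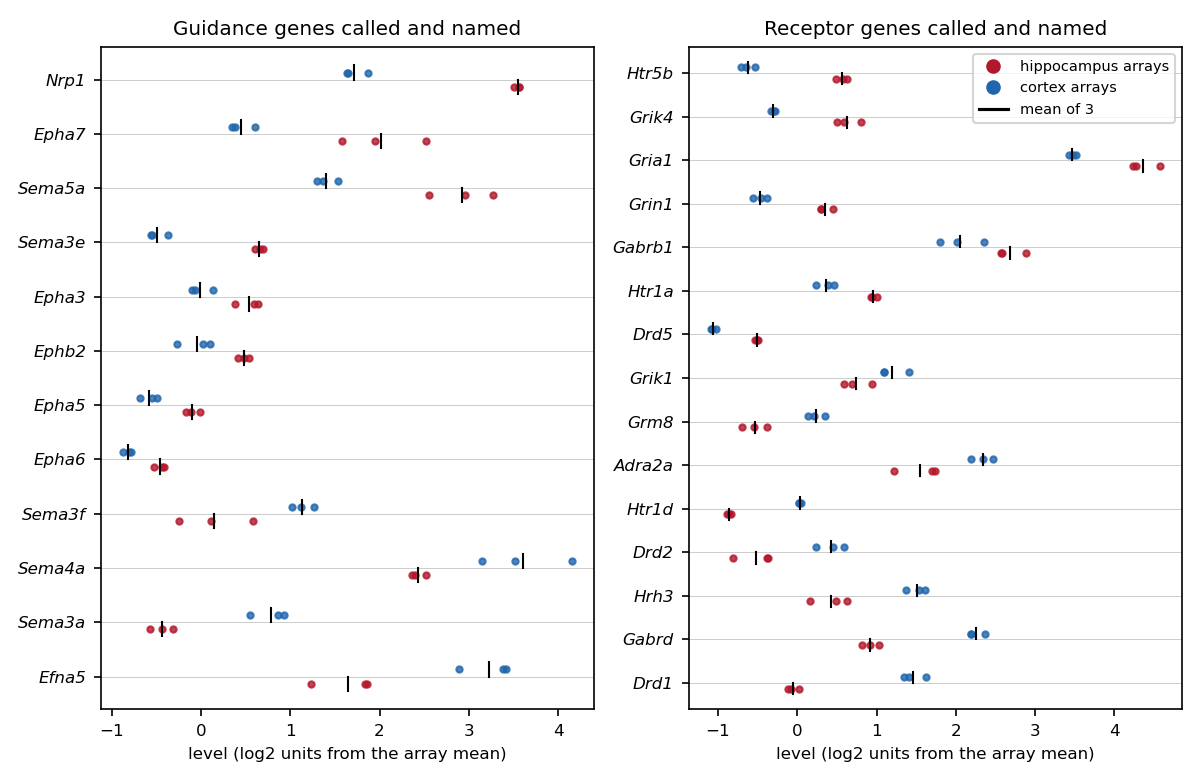
Levels on each vehicle array (x axis, log2 units from the array mean) of the called genes named in the text from the guidance list (left, 12 genes) and the 3 receptor lists (right, 15 genes), ordered by difference. Red points are hippocampal arrays, blue points cortical arrays and black lines means of 3. The receptors Nrp1 and Epha7 and the ligand Sema3e lie to the hippocampal side and the ligands Efna5 and Sema3a to the cortical side.

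Of 11 ionotropic and metabotropic glutamate receptor genes tested, 4 were higher in the hippocampus and 2 in the cortex. Gria1, the AMPA receptor subunit inserted during potentiation, was at 4.57, 4.28 and 4.23 in the hippocampus against 3.51, 3.43 and 3.47 in the cortex (log2 0.89, adjusted p = 0.0018). Grin1, the obligatory NMDA receptor subunit, differed by 0.82. The presynaptic receptor Grm8 (-0.77) and the kainate subunit Grik1 (-0.46) were higher in the cortex. Gria2 (-0.18) and Gria3 (-0.31) did not pass, and the NMDA subunits Grin2a and Grin2b were not detected often enough to be tested. The median, 0.01, became -0.09 without cortex replicate 1. Grik1 was not called without cortex replicate 1 or 2 or hippocampus replicate 1 or 3 (-0.51 to -0.36).

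Among GABA-A receptor subunits, Gabrd, the delta subunit of tonic inhibition, was at 1.03, 0.82 and 0.92 in the hippocampus against 2.19, 2.37 and 2.19 in the cortex (log2 -1.33). Gabrb1 (0.62) was higher in the hippocampus, and 4 of 7 tested subunits were not called. Gabrb1 lost its call without cortex replicate 1 or 2 or hippocampus replicate 1 or 2 (0.49 to 0.67). Of 20 tested interneuron and neuropeptide genes, 5 (25.0%) were higher in the cortex and 1 in the hippocampus. Pdyn, the dynorphin precursor, which granule cells and striatal neurons also use, was at 2.06, 1.54 and 1.79 against 3.53, 3.56 and 3.62 (log2 -1.77), with a second probe at -0.55. Slc32a1, the vesicular GABA transporter, was at 4.04, 4.18 and 4.16 against 5.07, 5.13 and 5.38. Vip, Reln and Adcyap1 differed by -0.71, -0.77 and -0.79. The markers Pvalb (-0.43), Gad1 (-0.21), Npy (-0.14), Sst (-0.02) and Cck (0.52) did not pass, but Pvalb (-0.68) and Npy (-0.59) were called without cortex replicate 3.

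Potassium and HCN channels, which set firing patterns, were called mostly on the cortical side. Of 39 tested genes, 12 (30.8%) were higher in the cortex and 4 (10.3%) in the hippocampus. Kcnh3, a channel of the ether-à-go-go family, was at 0.88, 1.15 and 1.23 against 2.18, 2.60 and 2.03 (log2 -1.18), and Kcna2, the delayed rectifier of axons, and Kcnj4, an inward rectifier, differed by -0.91 and -0.85. Hcn2 (0.79) and Kcnn2 (0.41) were among those higher in the hippocampus. Hcn2 was at 3.15, 3.10 and 3.06 against 2.74, 2.46 and 1.74, with cortex replicate 3 the lowest. Hcn2 lost its call without cortex replicate 2 or any single hippocampal array (0.76 to 0.86), and Kcnn2 without cortex replicate 1 or 2 or hippocampus replicate 3 (0.37 to 0.41). The list median of -0.02 was 0.09 after median centring.

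Of 17 tested receptors for monoamines, such as serotonin, dopamine and histamine, and for acetylcholine of the muscarinic type, 5 were higher in each tissue. Among the 5 higher in the cortex were Drd1 and Drd2, given above with the striatal genes. Htr5b, a serotonin receptor, was at 0.49, 0.57 and 0.63 in the hippocampus against -0.71, -0.53 and -0.64 in the cortex (log2 1.19), and Htr1a, the inhibitory receptor of pyramidal cells, at 1.0, 0.94 and 0.94 against 0.23, 0.39 and 0.46 (0.60). Drd5 was detected on no cortical array, a difference of at least 1.18-fold. The histamine receptor Hrh3 was at 0.16, 0.63 and 0.49 against 1.53, 1.61 and 1.37 (log2 -1.08). Htr1d was detected on all cortical arrays and no hippocampal array, at least 1.71-fold higher in the cortex, and Adra2a differed by -0.78. The beta adrenoceptor Adrb1 did not pass, at -0.24.

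Of 13 tested immediate early genes, which neuronal activity induces, 2 (15.4%, against 9.17% of all genes) were called higher in the cortex. They were Egr1 (4.62, 4.35 and 4.06 in the hippocampus against 5.28, 5.62 and 5.82 in the cortex, log2 -1.23) and Dusp6 (-0.60). Jun, a subunit of AP-1, was called in the opposite direction, at 2.47, 2.19 and 2.24 against 0.87, 0.90 and 0.80 (log2 1.44, adjusted p = 0.00016). Fos, Arc and Junb, at -0.96, -0.50 and -0.42, did not pass, and 12 of the 13 values were below 0. The median was -0.42, and at an unadjusted p under 0.05 in limma 6 were higher in the cortex and 1 in the hippocampus. The list medians of single arrays overlapped between the tissues. They ran from -0.34 to -0.08 on the hippocampal arrays and from -0.17 to 0.54 on the cortical arrays. Fos was called after quantile normalization (-1.03), after neqc (-1.40) and without cortex replicate 1 (-1.31). It was also called with replicate number as block, by 1 fit of all 12 arrays and with detection required on all 6 arrays. Dusp6 stayed called only where cortex replicate 1 was the array left out. Of 21 calcium buffers and sensors, 5 were higher in the cortex and 2 in the hippocampus. Hippocalcin (Hpca) was at 6.72, 5.99 and 6.16 against 5.45, 5.33 and 5.33 (log2 0.92). Its relatives Vsnl1 (-0.86) and Ncald (-0.82) and the sensor Necab3 (-1.18) had the opposite direction. Camk2a (0.00), Camk2b (0.01) and Nrgn (0.06) did not pass, although Nrgn was called higher in the cortex without cortex replicate 3 (-0.38).

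Glucocorticoids act through receptors encoded by Nr3c1, which was not detected often enough to be tested, and Nr3c2, for which no probe was matched. Hsd11b1, the enzyme that regenerates the active hormone, was at 2.91, 2.76 and 2.73 in the hippocampus against 2.0, 2.02 and 1.59 in the cortex (log2 0.93). The target Fkbp5, a chaperone that restrains the receptor, differed by 0.85 and Ddit4 by 0.66. Cdkn1a, the cell cycle inhibitor p21, was higher in the cortex (-0.94), and Sgk1 (0.26) and Per1 (-0.13) did not pass, so that 4 of 14 genes were higher in the hippocampus and 3 in the cortex. Among neurotrophin genes Ntf3, the ligand of TrkC, was detected in the hippocampus alone (at least 1.09-fold), and its receptor Ntrk3 was at 2.19, 2.11 and 2.07 against 1.58, 1.70 and 1.51 (log2 0.53). Bdnf (0.43) and its receptor Ntrk2 (-0.37) did not pass, although Bdnf was called without cortex replicate 2 (0.59). Of 10 tested genes listed for adult neurogenesis, Dcx, the marker of young neurons, was higher in the cortex, at 0.18, 0.43 and 0.20 against 0.69, 0.96 and 0.90 (log2 -0.58), as was Hes5 (-0.67). Dpysl3 was higher in the hippocampus (0.65), and Sox2 and Nes lay within 0.13 of 0 and did not pass. The call of Dpysl3 was lost without cortex replicate 2 or hippocampus replicate 2 or 3 (0.51 to 0.62).

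Genes of amyloid and tau were called about as often as all genes. Of 22 tested, 3 were higher in the hippocampus and 2 in the cortex, the groups were apart in 9, and values ran from -0.63 to 0.61 with a median of 0.02. Bace1, the beta-secretase, was at 3.62, 3.45 and 3.29 in the hippocampus against 2.74, 2.64 and 3.17 in the cortex (log2 0.61, adjusted p = 0.027), and Lrp1, a clearance receptor, differed by 0.46, but both lost their call without cortex replicate 1 or 2 or hippocampus replicate 2 (0.41 to 0.61). Apoe (-0.63), Cdk5r1 (-0.50) and Gsk3b (0.39) were called here but not after neqc, and Cdk5r1 changed direction after median centring (0.18). All 3 lost their call without hippocampus replicate 2 (-0.62, -0.42 and 0.42), and Cdk5r1 and Gsk3b also without hippocampus replicate 3 or cortex replicate 1 or 2. Mouse App (-0.37), Mapt (-0.23) and Psen2 (0.11) did not pass. Thy1, whose promoter elements drive the human transgenes in this line, was at 0.50 and did not pass, but was called after quantile normalization (0.68) and neqc (0.70).

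Among glial genes, Gfap, the intermediate filament of astrocytes, was at 2.02, 2.38 and 1.31 in the hippocampus against 0.45, -0.14 and 0.22 in the cortex (log2 1.72 ± 0.26, adjusted p = 0.0036). Hippocampal replicate 3 was the lowest of its group and still above all cortical arrays. Fgfr3, a growth factor receptor of astrocytes, differed by 1.1 and glutamine synthetase (Glul) by 0.49. Glul lost its call without cortex replicate 2 or hippocampus replicate 1 or 2 (0.40 to 0.50). The other defining markers Aqp4 (-0.20), Slc1a3 (-0.15), Aldh1l1 (0.06) and Gja1 (-0.27) did not pass. The astrocyte list of 21 had 4 higher in the hippocampus, 1 in the cortex and a median of 0.05, close to that of all genes.

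Of 26 tested microglial genes 9 (34.6%, against 12.0% of all genes) were higher in the hippocampus and none in the cortex, with a median of 0.38. At an unadjusted p under 0.05 in limma 19 were higher in the hippocampus and 0 in the cortex. The share of all genes at that threshold was not counted. Tyrobp, the signalling adaptor of TREM2, was at 0.62, 0.82 and 0.46 in the hippocampus against -0.03, -0.10 and -0.36 in the cortex (log2 0.80, adjusted p = 0.0049). Csf1r, the receptor on which microglia depend, was at 1.55, 1.62 and 1.43 against 0.84, 0.88 and 0.75 (0.71), and Trem2 differed by 0.65 and Siglech by 0.72. P2ry12 (0.54), Cx3cr1 (0.33) and Tmem119 (0.14) did not pass, but the first and second were called without cortex replicate 3 (0.61 and 0.44). With the methods' t-test 2 of the 26 were called. The median of the list ran from 0.08 to 0.29 on the hippocampal arrays and from -0.24 to -0.13 on the cortical arrays.

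Markers of other cells that a dissection may include varied between arrays of the same tissue. No choroid plexus gene of 12 was called by limma, none had an unadjusted p under 0.05, and the methods' t-test called none. The list medians ran from -0.53 to 1.84 on the hippocampal arrays and from -0.64 to 0.19 on the cortical arrays. Transthyretin (Ttr), its defining marker, differed by 0.02. Endothelial and mural genes had no call among 21 in limma or the methods' t-test, with 3 at an unadjusted p under 0.05. Their median of -0.16 was 0.08 after median centring. Oligodendrocyte genes had a median of 0.03, and the 3 of 22 that were called (Mal at 0.91, Opalin at 0.64 and Car2 at 0.55) were not called after quantile normalization or neqc, nor without cortex replicate 1 or 2 or hippocampus replicate 1 or 2 (0.40 to 0.94). Of 12 meningeal genes Dcn, the matrix proteoglycan decorin (3.37, 3.57 and 4.10 against 2.64, 2.03 and 2.44, log2 1.31), and Lum (0.63) were higher in the hippocampus. The values of 7 of the 12 were below 0, and the median was -0.12. The medians of that list overlapped, from -0.38 to 0.76 on the hippocampal arrays and from -0.28 to 0.10 on the cortical arrays. Rarres2 (0.79) was the only called gene of 7 ependymal genes. The 3 red cell genes tested were not called by limma, had no unadjusted p under 0.05, and were not called by the methods' t-test.

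Genes of respiration, ribosomes and the proteasome were called mostly on the hippocampal side. All genes were also called more often on that side under this scaling (12.0% against 9.17%), and the hippocampal share of the ribosomal list was close to theirs. Of 73 tested genes of oxidative phosphorylation, 13 (17.8%, against 12.0% of all genes) were higher in the hippocampus. In the cortex 3 were higher (4.11%, against 9.17%), and 57 were not called. The median of 0.20 was 0.33 after quantile normalization, and the methods' t-test called 1 of the 73. Complex I subunits such as Ndufb9 (0.98) and Ndufb5 (0.91) and the ATP synthase subunit Atp5h (0.92) were higher in the hippocampus. Atp5h lost its call without hippocampus replicate 1 (0.83). Ndufb9 was at 1.92, 1.66 and 1.60 against 1.03, 0.85 and 0.34, with cortex replicate 3 the lowest. Of 56 cytosolic ribosomal proteins 7 (12.5%) were higher in the hippocampus, close to the 12.0% of all genes, and 1 in the cortex. Without Rpl7a the hippocampal differences of that list were at most 0.96 (Rpl24). Of 31 proteasome subunits 6 (19.4%, against 12.0% of all genes) were higher in the hippocampus, Psmc5 (-0.60) was higher in the cortex and 24 were not called. The medians of the oxidative phosphorylation list ran from 0.02 to 0.24 on the hippocampal arrays and from -0.52 to 0.10 on the cortical arrays.

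The 6 arrays of AMI mice, which share no sample with the vehicle arrays but come from the same 2 tables, gave the same measure in other animals. All 109 probes called at least 1 higher in the hippocampus of vehicle mice had the same sign in AMI mice, 108 of them called, and all 124 on the cortical side kept their sign with 120 called. At the adjusted p threshold alone, 1156 of 1610 and 784 of 1108 were called again. In AMI mice 3444 of the 13104 probes (26.3%) were called. Spink8 differed by 3.5 in AMI mice, C1ql2 by 3.41 and Scn4b by -2.55, near their vehicle values of 3.65, 3.04 and -2.71. Because the tables are the same, these arrays do not separate tissue from table.

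**Figure D5:**
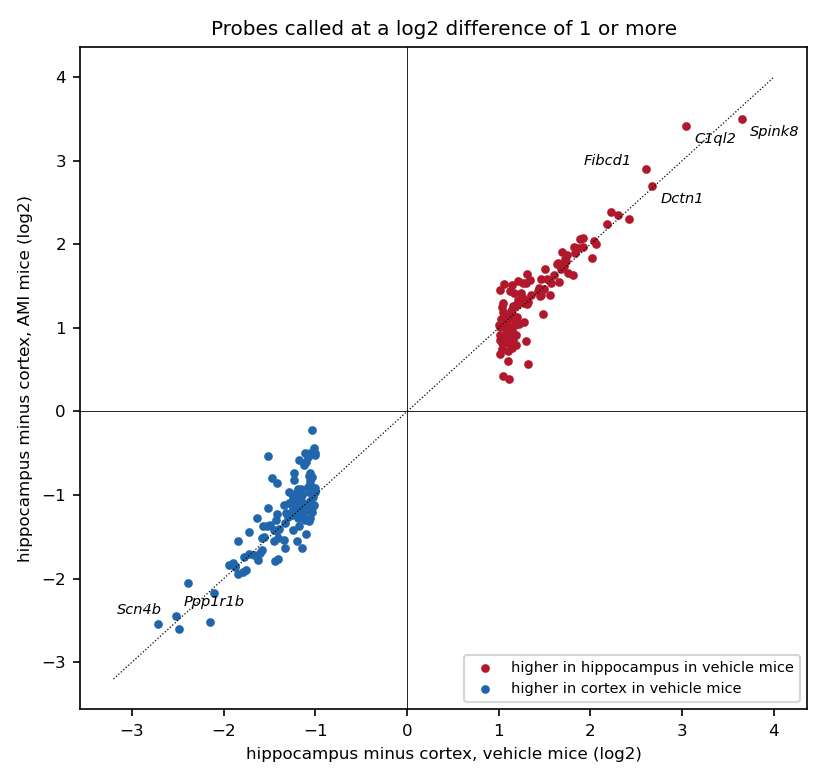
Difference between hippocampus and cortex in vehicle mice (x axis, log2) against that in AMI mice (y axis, log2) for the 233 probes called at a difference of 1 or more in vehicle mice, 1 point per probe. Red points were higher in the hippocampus (109) and blue points in the cortex (124), the dotted line marks equal differences, and all points lie in the quadrants of equal sign.

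Whether the tissue difference itself depended on the treatment was tested as an interaction over all 12 arrays. No probe of 13104 was called in limma, and 406 (3.1%) had an unadjusted p under 0.05. The median of the striatal list was -1.18 in vehicle mice and -0.82 in AMI mice, and that of the choroid plexus list was 0.37 and -0.50. The 3 red cell genes had medians of -0.35 and 0.72. No member of these lists was called in the interaction. At an unadjusted p under 0.05 in the limma interaction were 4 of 14 striatal, 0 of 12 choroid plexus and 0 of 3 red cell genes. So were 5 of 22 oligodendrocyte, 4 of 18 cadherin and 3 of 12 meningeal genes.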

How the data were processed

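RNA of 12 samples was hybridized, 1 array each. The authors deposited, per the file headers, the mean bead intensity of each probe, neither normalized nor background-corrected, with a detection p-value computed by the scanner software (GenomeStudio 1.1.1 for the cortex, BeadStudio 3.4 for the hippocampus, per the submitters' processing notes). Both tables were joined by probe. Log2 intensities were z-normalized per array over all probes, as in the study's methods, and put back on a log2 scale by the average SD over arrays. Hippocampus and cortex were compared with limma 3.58.1 (lmFit, eBayes) in R 4.3.3, where p was adjusted over all tested probes (Benjamini-Hochberg) and called under 0.05. The median residual SD was 0.14 on the log2 scale, and the number of arrays, 3 per group, limits the precision. Background was not subtracted, which shrinks differences of dim probes. In simulated data for this comparison 72% of probes changed by 1 on the log2 scale and 23% of those changed by 0.5 were recovered, with 4.04% of calls false. The simulation changed 200 of 13104 probes and drew the noise of each probe independently. In the data 20.7% of probes were called and probes can shift together on an array, so that these shares may not carry over.

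The genes named first are, per direction, the 15 with the largest difference among probes that were called, did not overlap, were detected on all 3 arrays of the higher tissue and were called the same way after quantile normalization and neqc, without clone names. The others are members of 30 gene lists, each by its brightest tested probe, named when called at a log2 difference of 1 or more, or as well-known members or further called members whatever their value. The members and the lists were chosen with earlier results of these data known. Symbols were updated to RefSeq, in which 23681 of 25697 probes matched a gene. The vehicle comparison was also computed after neqc (offset 16), quantile normalization and median centring, without the detection filter or with detection required on all 6 arrays, by 1 fit of all 12 arrays, with trended robust variances, with replicate number as block, by the methods' t-test, with the cutoffs of the study's methods, and with each array left out. The AMI comparison and the interaction were recomputed with quantile normalization, the block and each array left out only, and list medians under the scalings, detection on all 6 arrays, the 12-array fit and each array left out. Python 3.11.15 with pandas 2.3.3 and matplotlib 3.10.9 made tables and figures. Some members of the lists are counted in them but not reported singly here.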

Additional observations from a re-analysis of the deposited data

How the results depend on the processing

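The counts of called probes depended on the scaling, the test and single arrays. Median centring gave 2629 higher in the hippocampus and 317 higher in the cortex, against 1610 and 1108, and the methods' t-test after adjustment gave 690 and 435. At a log2 difference of 1 or more, median centring gave 406 and neqc 551 called probes, against 233. With 1 vehicle array left out, the hippocampal count ran from 706 (without hippocampus replicate 2) to 1663 (without cortex replicate 3) and the cortical count from 626 to 1179 for the same arrays. The hippocampal count was 997 without cortex replicate 1, 1059 without cortex replicate 2 and 1036 without hippocampus replicate 3. In AMI mice 1903 probes were higher in the hippocampus and 1541 in the cortex, the latter 2329 after quantile normalization. Without 1 AMI array these ranged from 916 (without cortex replicate 1) to 2344 (without hippocampus replicate 1) and from 774 to 1510 for the same arrays, with 1183 and 1109 in the hippocampus without cortex or hippocampus replicate 3 and 975 in the cortex without hippocampus replicate 3. The median of all tested probes was 0.20 after median centring, against 0.04. With it the medians of the endothelial (0.080), interneuron (0.13), potassium channel (0.085), calcium buffer (0.33), red cell (0.34) and meningeal (0.21) lists turned positive, as did Cdk5r1 (0.18), Slc1a3 (0.57) and 13 other genes given as not called (App, Aqp4, Efnb1, Gad1, Gja1, Gng7, Gria2, Mapt, Npy, Ntrk2, Per1, Pvalb and Sst). With 1 array left out, the glutamate receptor median ran from -0.086 to 0.11, the amyloid and tau median from -0.034 to 0.092, and Nrgn from -0.38 (without cortex replicate 3) to 0.28 (without cortex replicate 1). Apart from what a smaller number of arrays leaves, the cause was not tested. All 30 leading genes kept call and direction under each alternative that tested them. Their choice required the same call after quantile normalization and neqc, which fixed those outcomes in advance. Of the 145 called genes named in all, 77 kept call and direction. Of the 49 named as not called, 27 were called under no alternative. Dim probes are limited by background, which was not subtracted.

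The arrays gave no sign that equal replicate numbers mark the same mouse, which 3 arrays per group cannot exclude. Deviations of same-numbered hippocampal and cortical arrays correlated at -0.013, -0.026 and -0.03 in vehicle mice and at -0.019, 0.083 and -0.338 in AMI mice. Not every array correlated best with its own number. Over all combinations in AMI mice the values ran from -0.338 to 0.335 (hippocampus replicate 3 with cortex replicate 2). With a replicate block the counts were 1158 and 854 in vehicle mice, 234 at a log2 difference of 1 or more, and 1650 and 1335 in AMI mice. Under it 10 of the genes named lost their call and 3 gained one (Fos, Junb and Tnfrsf25). No probe was called for the interaction with quantile normalization, the block or any array left out, the alternatives run for it.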

Other observations

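Of the tested probes, 114 were not detected on any hippocampal array of vehicle mice and 170 on no cortical array. In 17 genes, separate probes were called in opposite directions. Called probes with groups that did not overlap, called the same way after quantile normalization and neqc, numbered 2090 (15.9% of those tested).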
